A study of Homo sapiens with 4 samples.

Results

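Hyaluronan is a long, unsulfated sugar chain of the extracellular matrix, built at the cell surface by hyaluronan synthases, cut by hyaluronidases and bound by receptors such as CD44 and HMMR. Synthases join UDP-glucuronic acid and UDP-N-acetylglucosamine and push the chain out through the plasma membrane. In carcinomas the chain is abundant in the stroma and on the tumour cells, where it gives tissue its swelling and binds CD44. Described here are the 3 synthases (HAS1, HAS2, HAS3), 3 hyaluronidases (HYAL1, HYAL2, HYAL3), the receptors CD44 and HMMR, and CHTF8, the gene that overlaps HAS3: 9 of the 20252 gene symbols of the deposited table. They were chosen by symbol, with earlier results of these data known. HAS3 and CHTF8 were picked also for their values, since HAS3 was listed at exactly 0 in both libraries of 1 group, so the values of HAS3 and CHTF8 are given as a description with no test.

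Poly(A) RNA was profiled in H2030, an established human lung adenocarcinoma line, in 2 libraries labelled GALNT3 overexpression (called OE below) and 2 labelled control vector. GALNT3 adds the first sugar of mucin-type O-glycans to proteins in the Golgi. Both groups were cultured for 2 days in medium with 10% serum at passage 5 to 10, and no other treatment or allele is recorded. The labels name neither the vector nor its promoter, and do not state whether a line is 1 clone. No label ties the replicates to separate cultures either, so p-values measure only how far these libraries lie apart, and that spread may be technical. Values are FPKM, that is, fragments scaled by transcript length and by library size. Levels can then be compared between genes as far as the lengths used were right, and these are not stated.

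GALNT3 stood at the opposite of its label. Its level was 0.0164 and 0 FPKM with the OE label, against 4.34 and 5.34 FPKM with the vector label. Every direction below is therefore between libraries as labelled, and would turn if the labels were exchanged. The 4 libraries held 14705 to 14891 genes above 0 and differed little in depth (0.966 to 1.07 relative to their mean, from the size of single-fragment steps). The epithelial keratins KRT8 and KRT18 were abundant (109 to 145 and 331 to 439 FPKM). EPCAM was low, at 0.459 to 1.40 FPKM, and KRT19 was listed at 0. Of 4 lung lineage markers none reached a mean of 1 FPKM.

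Among the synthases, HAS2 was measured above 0 in every library, HAS3 was listed at 0 in both OE libraries and above 0 in both vector libraries, and HAS1 was listed at 0 throughout. HAS2, the synthase of embryonic heart cushions and of many mesenchymal cells, was at 7.42 and 5.70 FPKM in the OE libraries, against 6.02 and 4.99 FPKM in the vector libraries. The groups overlapped, and in each group replicate 1 was the higher library. The difference was 0.21 ± 0.14 on the log2(FPKM + 1) scale (SE; 95% interval -0.12 to 0.55; limma, adjusted p = 0.836). It was 0.047 without OE replicate 1 and 0.38 without OE replicate 2, 0.098 without vector replicate 2 and 0.33 without vector replicate 1. HAS2-AS1, the antisense RNA that shares 201 exonic bases with HAS2 on chromosome 8 in GENCODE 29, was listed at 0 in every library.

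HAS3, which makes chains from the plasma membrane of epithelial and other cells, was listed at 0 in both OE libraries and at 5.00 and 6.01 FPKM in the vector libraries. In the vector libraries HAS3 averaged 5.50 ± 0.72 FPKM and HAS2 5.50 ± 0.73 FPKM (SD, n = 2), so these genes stood level there. HAS3 made up 45.4% and 54.7% of the summed synthase FPKM in the vector libraries. The sum over the synthases was 7.42 and 5.70 FPKM in the OE libraries, all of it HAS2, against 11.0 FPKM in each vector library. Whether an exact 0 in this table stood for a lack of fragments was not tested, and the counting program is not stated. LGALS8, a galectin, was also listed at 0 in both OE libraries and in vector replicate 2, and at 3.47 FPKM in vector replicate 1. No fold change is given for HAS3, because its OE values are listed zeros.

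HAS3 lies on the plus strand of chromosome 16 (69105564 to 69118719, GRCh38, GENCODE 29), and its end overlaps the end of CHTF8 on the minus strand (69118010 to 69132584). The shared span is 710 bases, of which 365 are exonic in both genes. The shared exonic bases are the last exon of HAS3-201 (69118355 to 69118719), a short transcript of 1163 bases, and make up 31.4% of it. The other 4 HAS3 transcripts, including HAS3-202 with 4220 bases, have 0 bases in CHTF8 exons. HAS3-201 and HAS3-202 share their first coding exons and end in different coding sequence. Both ends are shown because only the first lies inside CHTF8, with the stop codon in capitals, taken from the GENCODE 29 transcripts on the plus strand (chr16:69118433-69118462 for HAS3-201 and chr16:69115237-69115266 for HAS3-202).
HAS3-201: caccaacgccacgtttctagagagcagTGA
HAS3-202: cagtacagcttggcttttgctgaggtgTGA
Both are protein-coding in the annotation, and the deposited table has a single row for HAS3, so the values cannot be divided between them.

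**Figure D1:**
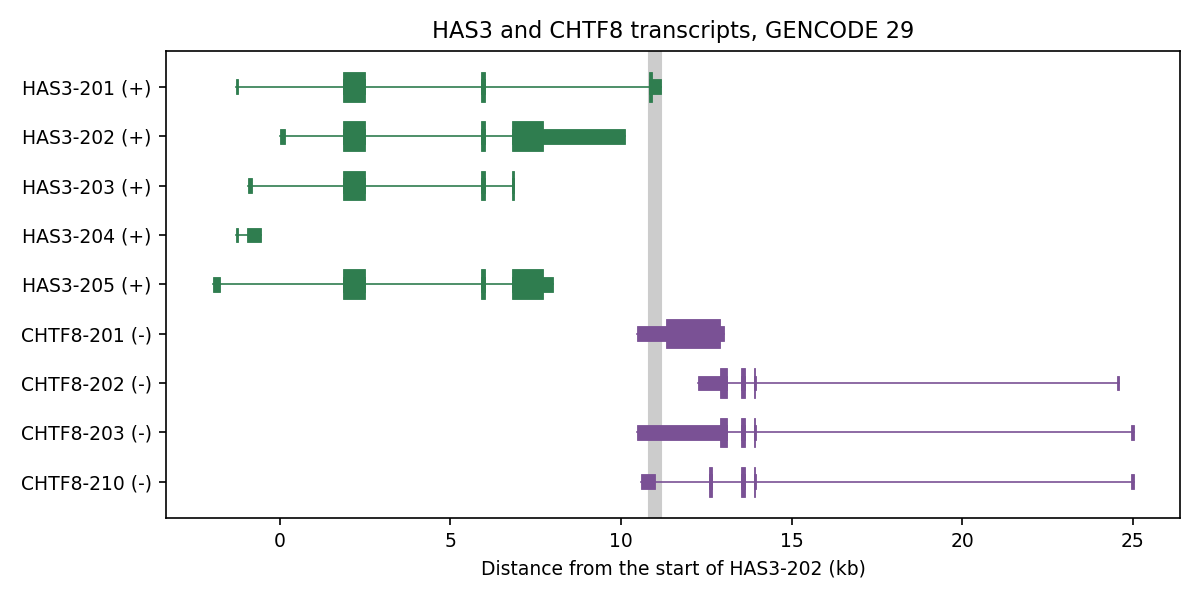
Transcripts of HAS3 (green, plus strand) and 4 of the 11 CHTF8 transcripts (purple, minus strand) in GENCODE 29, by distance in kb from the start of HAS3-202. Thick boxes are coding, thin boxes noncoding exon, lines introns, and the grey band is the last exon of HAS3-201, the 365 bases that lie in exons of both genes.

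The annotated RefSeq start of HAS3 coincides with that of HAS3-202 (base 69107540). The 250 bases before it are shown because HAS3 was listed at 0 in 1 group and not in the other (RefSeq, GRCh38.p14, plus strand, chr16:69107290-69107539; capitals mark a GC box and an E-box).
HAS3 upstream: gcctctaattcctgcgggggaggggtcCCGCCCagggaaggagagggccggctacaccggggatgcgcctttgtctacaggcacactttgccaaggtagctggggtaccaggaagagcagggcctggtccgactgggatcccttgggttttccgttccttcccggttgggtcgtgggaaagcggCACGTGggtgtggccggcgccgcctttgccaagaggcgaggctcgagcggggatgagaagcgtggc
The letters searched on both strands were GGGCGG for the GC box and CACGTG for the E-box, with CCAAT for the CCAAT box and TATAAA for the TATA box. No match overlapped another. The window held 1 GC box at position -223 and 1 E-box at position -66 from the start, and 0 CCAAT or TATA boxes. Of 35116 RefSeq promoter windows of the same length, 42.6% held a GC box, 6.34% an E-box, 32.0% a CCAAT box and 10.7% a TATA box. A match is a description of letters, not of binding.

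CHTF8, a subunit of the CTF18 clamp loader that places PCNA on DNA, was high in all libraries. It was at 50.2 and 50.7 FPKM in the OE libraries, against 49.4 and 44.7 FPKM in the vector libraries. Both OE values lay above both vector values, with the nearest pair less than the vector libraries' own spread apart. The other neighbour of CHTF8, UTP4 (listed under its older symbol CIRH1A), was at 64.9 and 63.7 FPKM in the OE libraries and 60.2 and 60.1 FPKM in the vector libraries. The library kit was stranded, but whether counting used strand is not given in the sources used here, so fragments of the shared 365 bases could be assigned to either gene.

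HAS3 was 1 of 9 rows listed at 0 in both OE libraries and at 1 FPKM or more in both vector libraries, and 3rd of them by vector mean. In the opposite direction there were 3 such rows. Of the 9 rows, 7 (HAS3 among them) share exonic bases with another gene of the table, against 28.4% of the tested genes. Of the 3 opposite rows, 3 do. HAS3 was picked with its zeros and its overlap known, so these shares are a description. Whether overlap had a part in the value of HAS3 was not tested. The genes nearest to HAS3 over the 4 libraries, by Euclidean distance on log2(FPKM + 1) among 10998 genes, were GALNT3 itself (0.22), PIK3CD (0.46) and ENOSF1 (0.53). PIK3CD was listed at 0 in both OE libraries, against 3.82 and 4.58 FPKM in the vector libraries, and ENOSF1 at 0 in both, against 7.43 and 7.03 FPKM. HAS3 was chosen for this pattern, so the likeness is a description over 4 libraries. The rows of HAS3 and of the other 8 members stood in alphabetical place in the table, while the row of GALNT3 did not.

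**Figure D2:**
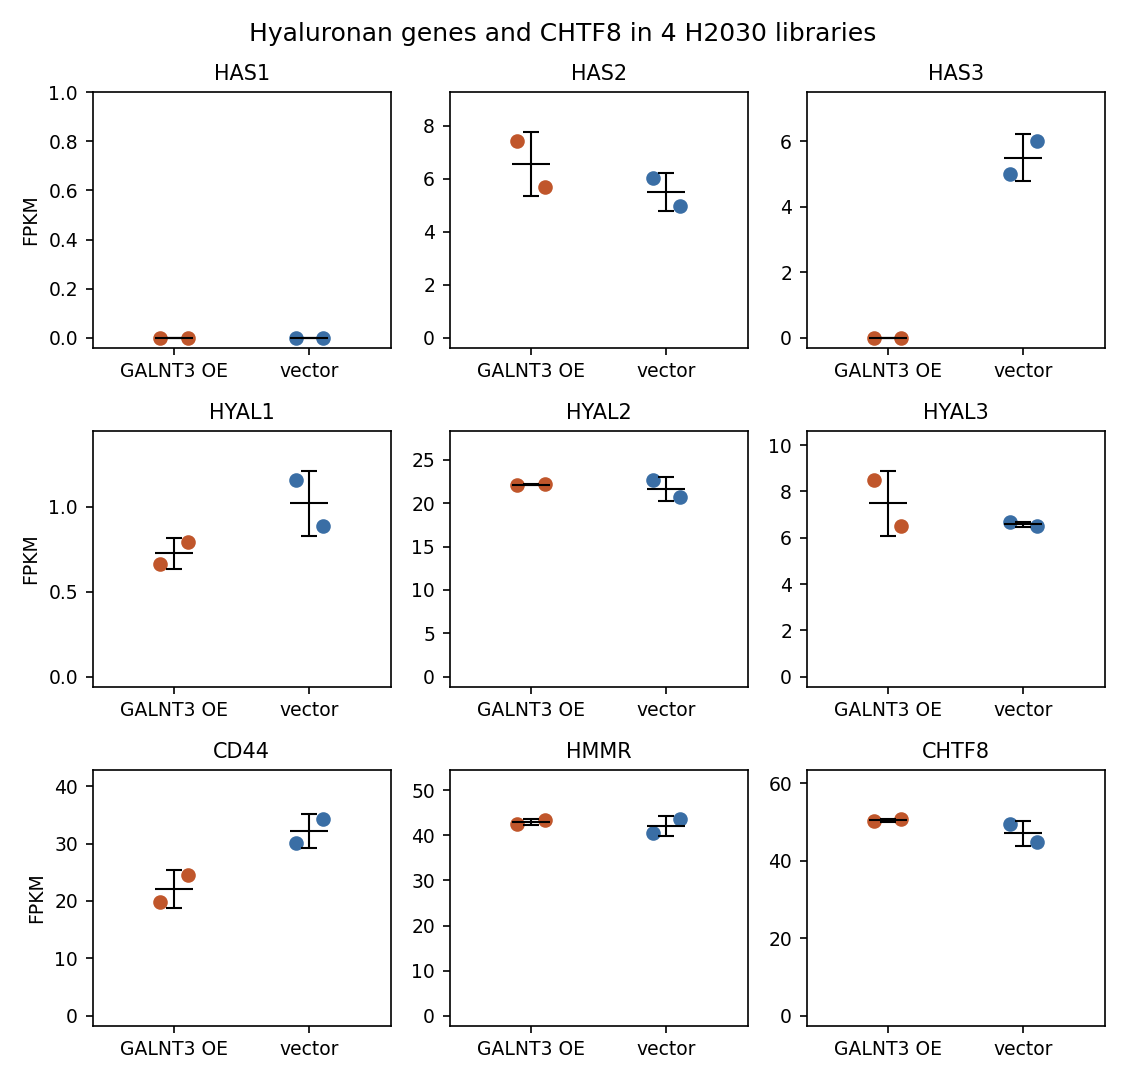
FPKM of the 9 genes in each library, with its own axis per gene. Points are libraries (replicate 1 left, replicate 2 right), and horizontal bars with whiskers are means ± SD of 2 libraries. HAS3 was at 0 in both OE libraries against 5.00 and 6.01 in vector, and CD44 was at 19.8 and 24.5 against 30.1 and 34.2.

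The hyaluronidases showed no difference past the threshold. HYAL2, a GPI-anchored enzyme that cuts long chains at the cell surface, was the most abundant, at 22.1 and 22.2 FPKM in the OE libraries against 22.6 and 20.7 FPKM in the vector libraries. The OE values lay between the vector values. The difference was 0.031 ± 0.091 on the log2(FPKM + 1) scale (SE; 95% interval -0.18 to 0.24; limma, adjusted p = 0.972). HYAL2 held 70.7% and 75.2% of the summed hyaluronidase FPKM in the OE libraries, against 74.3% and 73.6% in the vector libraries. It shares 509 exonic bases with TUSC2 on the same strand of chromosome 3, and TUSC2 was at 13.2 and 13.4 FPKM in the OE libraries, against 12.9 and 12.4 FPKM.

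HYAL3, whose own enzymatic activity is weak or uncertain, was at 8.48 and 6.50 FPKM in the OE libraries, against 6.67 and 6.52 FPKM in the vector libraries. OE replicate 1 stood above the other 3 libraries, which lay close together. The difference was 0.15 ± 0.13 (SE, log2(FPKM + 1); 95% interval -0.15 to 0.46; limma, adjusted p = 0.884), and it was -0.02 without OE replicate 1. HYAL3 overlaps NAA80 (listed as NAT6), an acetyltransferase of actin, by 248 exonic bases on the same strand. NAT6 was at 3.34 and 4.13 FPKM in the OE libraries, against 4.11 and 3.86 FPKM in the vector libraries. The ratio of HYAL3 to NAT6 was 2.54 in OE replicate 1 and 1.58 to 1.69 in the other 3 libraries. HYAL3 also shares 43 exonic bases with IFRD2 on the same strand. IFRD2 was at 41.2 and 45.9 FPKM in the OE libraries, against 40.4 and 43.5 FPKM in the vector libraries.

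HYAL1, the lysosomal hyaluronidase that completes the breakdown HYAL2 begins, was at 0.664 and 0.792 FPKM in the OE libraries, against 1.16 and 0.886 FPKM in the vector libraries. The groups did not overlap, and the nearest libraries of the 2 groups lay closer together than the 2 libraries of either group. Its mean of 0.875 FPKM was under the minimum of 1 FPKM for testing. With every gene above 0 tested (15991 genes) its difference was -0.22 ± 0.094 (SE, log2(FPKM + 1); limma, unadjusted p = 0.0697, adjusted p = 0.654). HYAL1, HYAL2 and HYAL3 lie together on the minus strand of chromosome 3 between 50292831 and 50322906.

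CD44 was the receptor that was lower in the OE libraries, at a size that did not pass the threshold over all genes. CD44, a transmembrane receptor that binds hyaluronan through its link domain and is much used as a marker of stem-like carcinoma cells, was at 19.8 and 24.5 FPKM in the OE libraries, against 30.1 and 34.2 FPKM in the vector libraries. Both OE libraries lay below both vector libraries, and replicate 2 was the higher library in each group. The difference was -0.52 ± 0.12 on the log2(FPKM + 1) scale (SE; 95% interval -0.81 to -0.24; limma, unadjusted p = 0.00335, adjusted p = 0.219), and by p CD44 ranked 168th of 10998 genes. Without single libraries it ran from -0.67 to -0.38, below 0 each time. The members were chosen with earlier results of these data known, and the p of CD44 carries that limit. In bulk RNA, fewer cells with a transcript and less transcript per cell cannot be told apart.

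HMMR, a hyaluronan-binding protein that also sits on the mitotic spindle and rises in dividing cells, was at 42.5 and 43.4 FPKM in the OE libraries, against 40.4 and 43.6 FPKM in the vector libraries. The OE values lay between the vector values. The difference was 0.033 ± 0.087 (SE, log2(FPKM + 1); 95% interval -0.17 to 0.24; limma, adjusted p = 0.970), and its sign turned with quantile normalization (-0.01) and without vector replicate 1 (-0.02). The ratio of CD44 to HMMR was 0.466 and 0.565 in the OE libraries, against 0.744 and 0.786 in the vector libraries. Whether CD44 and HMMR differed in their change was not tested.

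**Figure D3:**
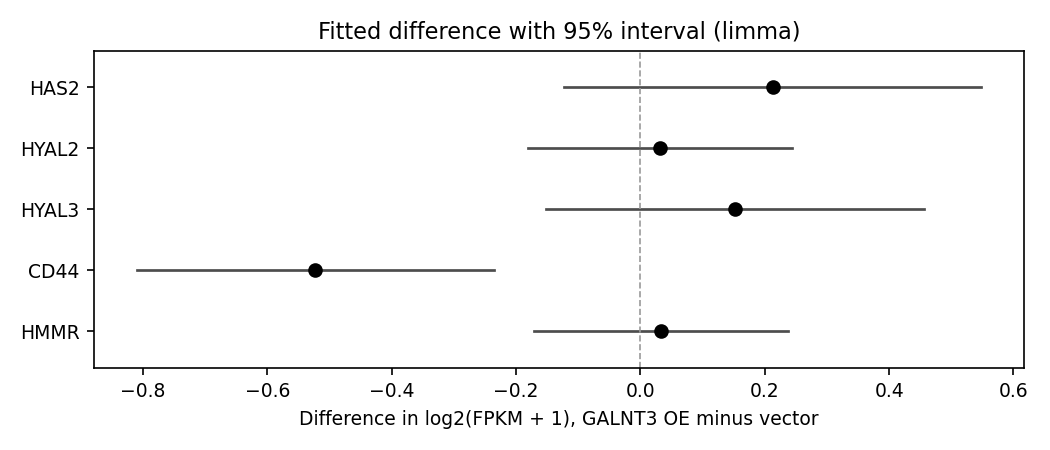
Difference in log2(FPKM + 1), OE minus vector, for the 5 members that were tested, with points for the limma estimate and lines for the 95% interval before adjustment for many genes. CD44 lies at -0.52 with an interval of -0.81 to -0.24, and the intervals of HAS2, HYAL2, HYAL3 and HMMR all cross 0.

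Of the 5 tested members (HAS2, HYAL2, HYAL3, CD44 and HMMR), 0 passed an adjusted p of 0.05 in limma, against 0.500% of the 10998 genes (0.109% higher and 0.391% lower in OE). At an unadjusted p of 0.05, 1 of the 5 passed (CD44), against 7.34% of all genes. The groups did not overlap in 1 of the 5 (CD44), against 36.2% of all genes (20.9% higher and 15.3% lower in OE). With 2 libraries in each group, an exact permutation test of 1 gene cannot go below p = 0.333, so every p rests on the variance that limma shares between genes.

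Whole fragments bound the counting error for some members. After correction for relative depth, the values of HAS2 were in whole-number proportion, 151 and 115 units in the OE libraries and 135 and 103 in the vector libraries, with no value further than 0.0002 from a whole number. HYAL2 gave 790 and 787 units in OE and 893 and 751 in vector, with no value further than 0.0013 from a whole number. CD44 gave 1726 and 2118 in OE and 2889 and 3032 in vector, with none further than 0.0073. The CD44 match lay nearest the tolerance of 0.01, and whether a match arose by accident was not tested. A unit can stand for more than 1 fragment, so these are the smallest fragment numbers the values allow if fragments were counted whole. The depth-corrected ratio of OE to vector was then 0.690 for CD44 (95% exact interval 0.663 to 0.719), 1.02 for HYAL2 (0.951 to 1.09) and 1.19 for HAS2 (0.994 to 1.42). With these smallest numbers the intervals are the widest that counting error could give, if fragments were counted whole. They do not cover the spread between cultures. The values of CHTF8, HYAL1, HYAL3 and HMMR gave no such proportion within the tolerance. HAS1 and HAS3 were not searched, because each has listed zeros.

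By level, averaged over all libraries, the order was CHTF8 (48.8 FPKM), HMMR (42.5), CD44 (27.1), HYAL2 (21.9), HYAL3 (7.04), HAS2 (6.03), HAS3 (2.75), HYAL1 (0.875) and HAS1 (0). The place of HAS3 averages listed zeros in OE with 5.50 FPKM in vector, where its listed value was level with that of HAS2. In the OE libraries CD44 (22.1 ± 3.3 FPKM, SD, n = 2) and HYAL2 (22.1 ± 0.053) did not differ beyond their spread, while in the vector libraries CD44 (32.2 ± 3.0) lay above HYAL2 (21.7 ± 1.4). HYAL3 and HAS2 overlapped in the OE libraries (7.49 ± 1.4 and 6.56 ± 1.2 FPKM). The share of tested genes with a lower mean was 83.8% for HMMR, 74.9% for CD44, 70.0% for HYAL2, 37.7% for HYAL3 and 33.0% for HAS2.

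The genes nearest to CD44 over the 4 libraries, by the same distance and with the same limit of 4 libraries, were CXCL2 (0.23), MAFK (0.32) and CCND3 (0.34). CXCL2 was at 21.6 and 26.6 FPKM in the OE libraries, against 26.9 and 33.8 FPKM in the vector libraries. CCND3 was at 21.0 and 21.3 FPKM in OE, against 30.8 and 28.3 FPKM in vector. CD44 is also abundant on leukocytes and fibroblasts, whose markers were looked up. Of 6 leukocyte markers 1 reached a mean of 1 FPKM, CD68, at 17.1 and 16.3 FPKM in the OE libraries against 29.3 and 27.2 FPKM in the vector libraries. The summed leukocyte markers were 16.6 to 18.1 FPKM in OE and 27.5 to 30.6 FPKM in vector, while the pan-leukocyte marker PTPRC was at 0 in 3 libraries and 0.00983 FPKM in vector replicate 1, and CD3E was at 0. Of 6 fibroblast markers 2 reached 1 FPKM (COL1A1 and COL3A1), with a sum of 19.1 to 26.7 FPKM in OE and 14.4 to 17.9 FPKM in vector, and DCN was at 0. Of 4 mesothelial markers 2 reached 1 FPKM, with a sum of 37.2 to 42.1 FPKM in OE against 24.8 to 27.2 FPKM in vector, nearly all of it CALB2, while MSLN stayed at or below 0.168 FPKM. The 3 endothelial markers summed to 0.333 to 0.638 FPKM in OE and 0.246 to 0.319 FPKM in vector. The part of CD68, COL3A1 or CALB2 expressing cells in the CD44 values was not tested.

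Around the members, 79 further genes of hyaluronan biology were looked up in 5 lists, and 47 reached the minimum for testing. Of these 47, 0 passed the adjusted threshold in limma in either direction, against 0.500% of all genes, and 6 had an unadjusted p below 0.05, against 7.34% of all genes. The median difference over the 47 was 0.053 on the log2 scale, against 0.016 over all tested genes.

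Genes that make or transport the sugar nucleotides were measured at 4.51 to 58.5 FPKM, except GFPT2, which stayed below the minimum. Of 11 tested, 0 passed and 2 had an unadjusted p below 0.05 (7.34% of all genes), with a median of 0.045. UGDH, which oxidises UDP-glucose to UDP-glucuronic acid, was at 18.8 and 16.5 FPKM in the OE libraries, against 28.4 and 20.5 FPKM in the vector libraries (limma, adjusted p = 0.555). Its difference of -0.43 on the log2 scale was -0.21 without vector replicate 1 and -0.66 without vector replicate 2. HK1, a hexokinase that traps glucose in the cell, was at 17.4 and 16.8 FPKM in OE, against 23.0 and 20.8 FPKM in vector (limma, adjusted p = 0.354). Both genes were lower in both OE libraries, and vector replicate 1 was their highest library. GNPNAT1, which acetylates glucosamine 6-phosphate, was at 41.2 and 35.9 FPKM in OE, against 36.9 and 32.7 FPKM in vector, and overlapped between groups (adjusted p = 0.858).

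Most matrix partners of hyaluronan lay under the minimum. Of 25 genes for hyalectans, link proteins, inter-alpha-inhibitor chains and further binding proteins, 3 were tested, 0 passed and 1 had an unadjusted p below 0.05 (7.34% of all genes), with a median of 0.12. VCAN, the versican core protein, was at 0.0164 FPKM or less, and TNFAIP6, which moves heavy chains onto hyaluronan, and LYVE1, the lymphatic receptor, were listed at 0 in every library. HABP4 was at 7.34 and 8.37 FPKM in OE, against 6.51 and 6.10 FPKM in vector (limma, adjusted p = 0.605). C1QBP, a mostly mitochondrial protein also known as a hyaluronan-binding protein, was at 283 and 249 FPKM in OE, against 255 and 235 FPKM in vector (adjusted p = 0.899). BCAN, the brain proteoglycan brevican, was at 7.46 and 8.21 FPKM in OE, against 7.35 and 8.16 FPKM in vector (adjusted p = 0.993).

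Other genes of breakdown gave 6 tested members with 0 passing, 1 with an unadjusted p below 0.05 (7.34% of all genes) and a median of 0.041. TMEM2, a surface protein described as a hyaluronidase in the mouse, was at 30.6 and 30.1 FPKM in the OE libraries, against 25.1 and 22.6 FPKM in the vector libraries (limma, adjusted p = 0.345), with no overlap. The lysosomal galactosidase GLB1 was at 16.1 and 16.0 FPKM in OE, against 17.2 and 13.6 FPKM in vector. HEXA and GUSB, which encode lysosomal enzymes that take sugars off hyaluronan fragments, had differences of 0.018 and -0.017 on the log2 scale. SPAM1 and HYAL4 were listed at 0 in every library.

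Of 14 tested partners of CD44, 0 passed and 1 had an unadjusted p below 0.05, a share near the 7.34% of all genes, with a median of 0.050. That gene was EZR, which encodes ezrin, a linker between the CD44 tail and actin. EZR was at 127 and 136 FPKM in the OE libraries, against 98.0 and 99.4 FPKM in the vector libraries, so both OE libraries stood higher (0.41 ± 0.090 on the log2 scale, SE; limma, adjusted p = 0.180). The related linkers MSN and RDX had differences of -0.10 and -0.01. SPP1, which encodes osteopontin, a CD44 ligand, was the most abundant of the list, at 1010 and 947 FPKM in OE, against 919 and 820 FPKM in vector (adjusted p = 0.850). SRGN, the serglycin core protein, was at 486 and 388 FPKM in OE, against 518 and 433 FPKM in vector. SLC7A11, the cystine transporter that a CD44 splice form stabilises, was at 23.7 and 19.1 FPKM in OE, against 25.4 and 24.1 FPKM in vector (adjusted p = 0.780). ADAM17, a sheddase, was at 19.9 and 20.7 FPKM in OE, against 23.1 and 21.5 FPKM in vector (adjusted p = 0.844). ESRP1, a splicing regulator of CD44 exons, was listed at 0 in every library, and its relative ESRP2 was at 3.17 to 3.53 FPKM.

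Of 13 tested partners of HMMR at the spindle and in mitosis, 0 passed and 1 had an unadjusted p below 0.05, a share near the 7.34% of all genes, with a median of 0.062. CCNB1, the mitotic cyclin, was at 200 and 197 FPKM in the OE libraries, against 171 and 169 FPKM in the vector libraries (limma, adjusted p = 0.641). TPX2, which binds HMMR on spindle microtubules, was at 93.4 and 110 FPKM in OE, against 92.4 and 102 FPKM in vector. PLK1, a mitotic kinase, was at 68.7 and 84.3 FPKM in OE, against 67.3 and 73.2 FPKM in vector (adjusted p = 0.912), and MAP2K1 at 38.6 and 39.0 FPKM in OE, against 38.4 and 33.9 FPKM in vector (adjusted p = 0.897). Replicate 2 was the higher library in both groups for TPX2, PLK1 and HMMR.

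**Figure D4:**
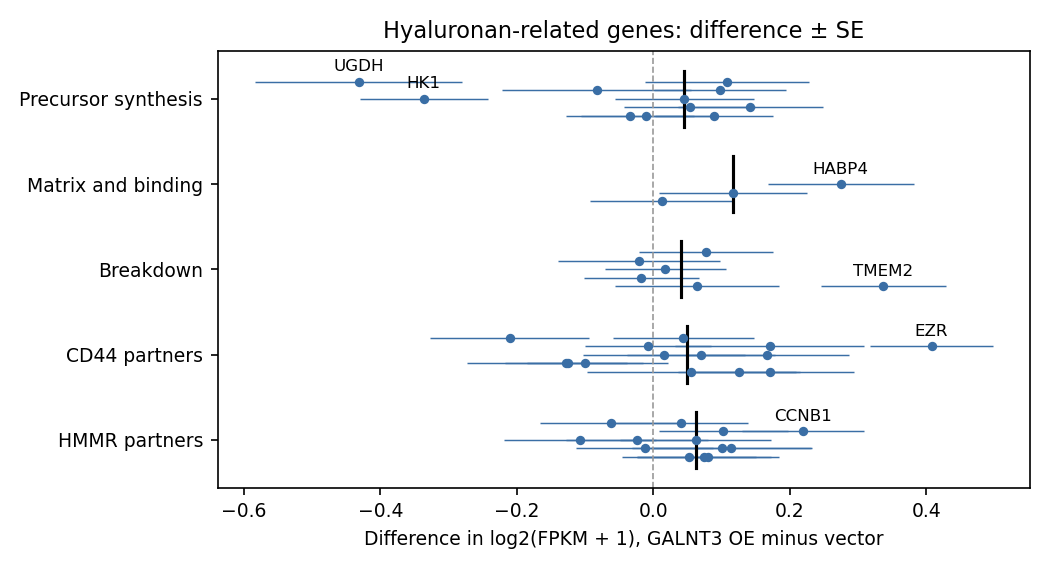
Difference in log2(FPKM + 1), OE minus vector, for the 47 tested genes of the 5 lists, with SE; black ticks are list medians and the 6 named genes had an unadjusted p below 0.05. UGDH (-0.43) and HK1 (-0.34) lie lowest and EZR (0.41) and TMEM2 (0.34) highest with all 4 libraries, and 0 of the 47 passed the adjusted threshold.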

How the data were processed

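The authors deposited 1 table with a column of FPKM per library. No unit stands in its header; the values are not whole, sum to 401366 to 448194 per library and step with transcript length, and were taken as FPKM. Per the submitters' processing notes, TopHat, GenomeStudio 2010.1, GRCh38 and hg19 were used, with no roles given. The counting program and annotation are not stated. Steps of single fragments, set against the lengths of 124 genes with 1 GENCODE transcript, put the approximate depth at 18.2 to 20.2 M fragments per library (M, mega). That range is between libraries. The estimates from single genes spread wider, with quartiles of 16.0 and 19.1 M for OE replicate 1 alone.

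The 10998 genes whose mean reached 1 FPKM were transformed to log2(FPKM + 1), which understates changes of low genes, and fitted with limma 3.58.1 in R 4.3.3 (mean-variance trend, group as the only term; two-sided p, Benjamini-Hochberg over all tested genes, threshold 0.05). The same script was tested on simulated data. Positions and transcripts came from GENCODE 29 by symbol, and the upstream sequence from RefSeq (8 of the 9 members had an entry). Python 3.11.15 was used for the rest.

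The members and gene lists were chosen with earlier results of these data known. The lists also held older symbols of 3 genes. Text names all members, up to 3 genes per list with the smallest adjusted p, the 3 genes nearest to HAS3 and to CD44, and annotated neighbours; some genes under this rule are not reported here. Other list genes (GFPT2, VCAN, TNFAIP6, LYVE1, HEXA, GUSB, SPAM1, HYAL4, MSN, RDX, SPP1, SRGN, LGALS8, ESRP1, ESRP2 and TPX2) were chosen after their values were seen. Whole-unit proportions were sought for members above 0 in every library, up to 4000 units in the lowest library, within 0.01 of a whole number. Alternatives tried were pseudocounts of 0.1 and 5, other filters on low values, leaving out genes listed at 0 in any library, median centring, quantile normalization, no trend, a replicate block and leaving out each library.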

Additional observations from a re-analysis of the deposited data

How the results depend on the processing

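CD44, HAS2 and the count of tested members past the threshold kept their direction and side under pseudocounts of 0.1 and 5, all 3 filters (none, a higher minimum, no gene listed at 0), both scalings and the fit without a trend. CD44 ran from -0.67 to -0.38 over the fits without 1 library (limma, adjusted p from 0.0579 to 0.784; the lone library of a group was assumed to vary like the other group), and HAS2 from 0.047 to 0.38. The sign of HMMR turned with quantile normalization (-0.011) and without vector replicate 1 (fits without 1 library ran from -0.020 to 0.086). HYAL2 turned without vector replicate 2 (-0.032 to 0.094) and HYAL3 without OE replicate 1 (-0.017 to 0.32). Among list genes, fits without 1 library ran from -0.054 to 0.080 for BCAN (below 0 without OE replicate 2, at -0.048, and without vector replicate 1), from -0.097 (without vector replicate 2) to 0.22 for GLB1, and from -0.032 (without OE replicate 2) to 0.26 for PLK1. The cause was not tested.

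With a replicate block, CD44 (-0.52) had an adjusted p of 0.00223 in limma, so 1 member passed, and 4 list genes passed (HK1, UGDH, TMEM2 and EZR). All genes called numbered 443 with the block, 55 without it. Libraries with the same number share only that number, per the labels. Across genes, the difference between replicates 1 and 2 correlated at r = 0.22 between the groups. All genes called numbered 12 with every gene above 0 tested, 31 where the mean had to reach 5 FPKM, and 23 (without vector replicate 1) to 83 (without OE replicate 2) with 1 library left out.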
